A study of Solea senegalensis with 8 samples.

Results

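White blood cell miRNAs are small regulatory RNAs known chiefly from leukocytes, and the members described here were the entries of the miRNA table named miR-142, miR-146, miR-150, miR-155 or miR-223, whatever the letter or strand. They numbered 8 of the 320 miRNAs in the table: miR-142, miR-142b, miR-146a, miR-146b, miR-150, miR-155, miR-223-3p and miR-223-5p. They were read in whole embryos and larvae of Senegalese sole (Solea senegalensis), a flatfish, so the name refers to where these miRNAs are known from and no blood cells were sorted. The 8 libraries of small RNA came from 4 stages, each with 1 library of the 21°C group and 1 of the 15°C group, named by the incubation temperature of the embryos. The embryos were taken when the cell sheet covered 75% of the yolk in epiboly (75Ep) and when 20 somites had formed (20S), and the larvae at hatching (Hatch) and at the climax of metamorphosis (Met, stage 3 of eye translocation). After hatching all larvae were kept at a common temperature, so the Met libraries differed in the temperature of the embryos, not of the larvae. Met larvae were matched by stage and not by age. Each library was a pool of triplicate samples, and a stage at a given temperature therefore had no replicate library.

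A miRNA is loaded into an Argonaute protein, pairs with sites in messenger RNAs and lowers their output, and a precursor can give a miRNA from its 5′ arm (-5p) and from its 3′ arm (-3p). In vertebrates miR-223 is known from granulocytes and other myeloid cells, miR-142 from nearly all blood lineages, miR-146a from a feedback loop that dampens NF-κB signalling during inflammation, miR-150 from mature lymphocytes, and miR-155 from activated lymphocytes and macrophages. Teleost embryos make macrophages and neutrophils early, before the thymus and kidney supply lymphocytes. These cells are a small part of a whole embryo, and their miRNAs are a small part of its reads.

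The trimmed reads numbered 2169069 to 4965849 per library, and the reads of the 320 miRNAs 142964 to 2284973, or 6.59 to 46.0% of the trimmed reads. The miRNA share differed most between temperatures at Met, where it was 17.9% in the 21°C library and 46.0% in the 15°C library. The deposited values are the log2 of each miRNA's percent of the trimmed reads, and whole reads were recovered from them. All 45 values of the members that were above the value for no read came out as whole reads within 0.01 read. Levels are given as reads, or as RPM, reads scaled to 1000000 trimmed reads, with no scaling for length because mature miRNAs are of nearly equal length. Intervals in parentheses are exact 95% intervals and cover counting error only. Stages were compared with limma, in which the libraries of both temperatures served as the libraries of a stage, with 3 residual degrees of freedom and an adjusted p under 0.05 as the threshold. The fit also held a term for temperature, so a temperature difference shared by all stages was removed. The p-values therefore measure how unevenly the 21°C and 15°C libraries differed from stage to stage. Each variance was drawn towards that of miRNAs of similar level. Whether separate spawns were pooled was not stated for these libraries, so nothing is known here of the spread between fish.

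The members together were read most at Met and least at the embryo stages. Over 75Ep, 20S, Hatch and Met, in that order, their summed reads numbered 134, 139, 1350 and 3568 in the 21°C libraries, against 147, 322, 1738 and 8965 in the 15°C libraries. As a level this was 61.8, 54.2, 414.6 and 840.0 RPM at 21°C, against 52.4, 97.0, 403.0 and 1805 RPM at 15°C. Series of 4 values below keep this order of stages. The sum at Met was 24.1 (21.4 to 27.2) times that at 75Ep over both libraries of each stage, but of the miRNA reads alone, which also grew, the ratio was 4.904 (4.36 to 5.54). In these whole-body libraries, more cells of a type and more RNA per cell cannot be told apart. The members with at least 1 read numbered 4, 5, 6 and 8 at 21°C, and 3, 5, 7 and 7 at 15°C. miR-146a, miR-150 and miR-223-3p were read in all 8 libraries and supplied most of the reads.

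**Figure D1:**
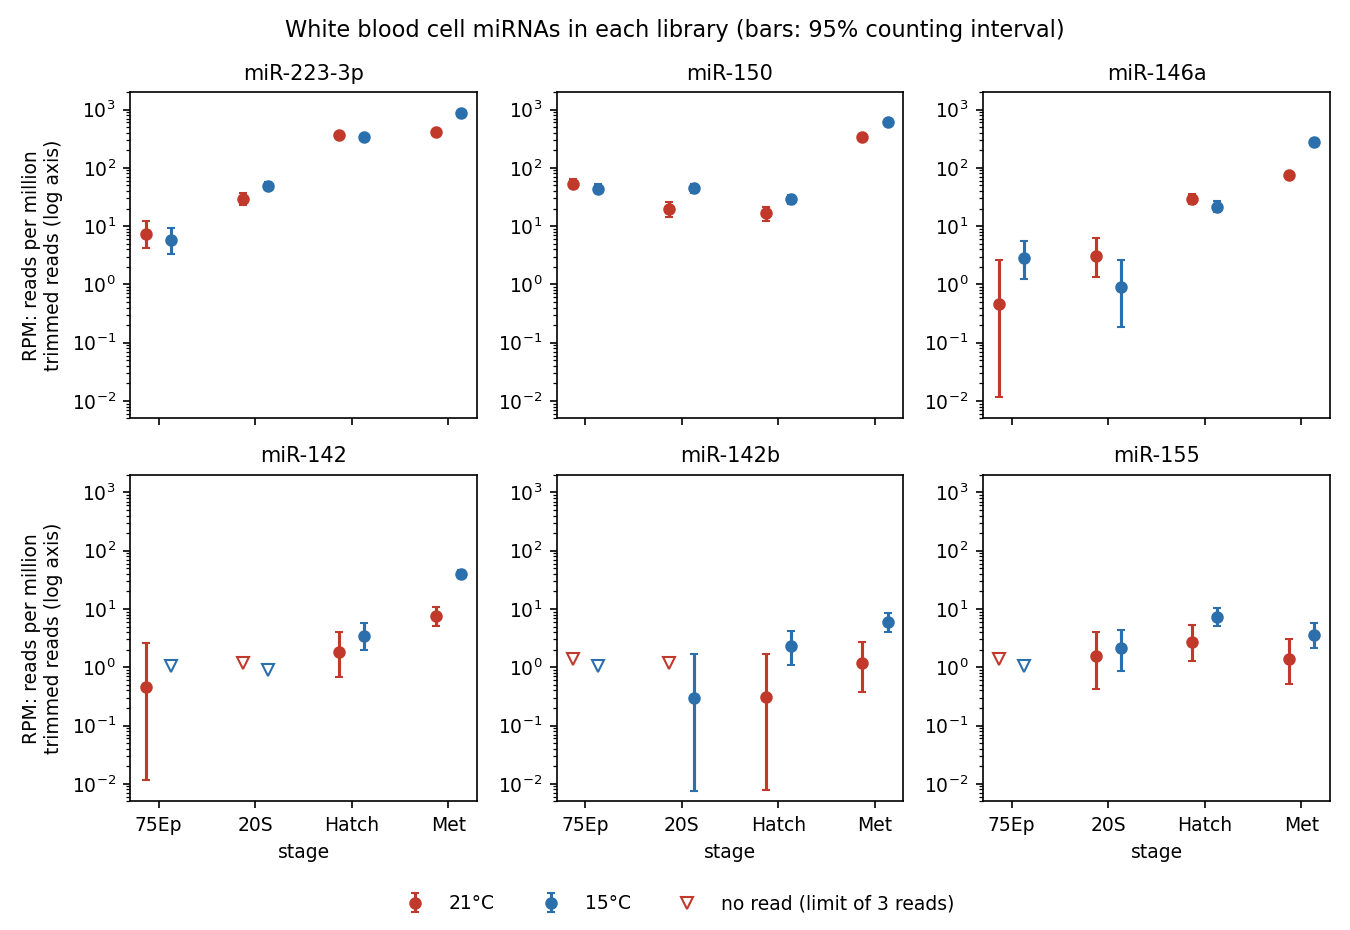
RPM (reads scaled to 1000000 trimmed reads, log axis) of the 6 members with over 7 reads in all in the 8 libraries, by stage along the x axis, with 21°C left of 15°C. Bars are exact 95% counting intervals, and open triangles, at the limit of 3 reads, mark libraries with no read. miR-223-3p was higher at each later stage in both temperature groups, while miR-150 was read at every stage and stood highest at Met.

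miR-223-3p, the myeloid and neutrophil miRNA, was the most abundant member from 20S onwards. It had 16, 74, 1185 and 1755 reads from 75Ep to Met at 21°C, against 16, 164, 1456 and 4366 reads at 15°C. As a level this was 7.38, 28.9, 363.9 and 413.2 RPM at 21°C, against 5.71, 49.4, 337.6 and 879.2 RPM at 15°C, so no library overlapped with the stage before it. The change at Met against 75Ep was 6.54 on the log2 scale (SE 0.76, limma adjusted p = 2.20e-04), a ratio of 103 (73.0 to 151) in pooled reads, and it passed the test under all scalings tried. Its change at 20S against 75Ep was 2.54 (SE 0.76, limma adjusted p = 0.0291), a ratio of 6.28 (4.33 to 9.40), but relative to the summed miRNA reads it was 0.78 (limma adjusted p = 0.264). Centred on the median miRNA the change was 0.02 and did not pass. This call at 20S was also lost without the 75Ep 15°C library (limma adjusted p = 0.108), either 20S library (0.156 without 21°C, 0.218 without 15°C) or either Hatch library (0.0807 without 21°C, 0.0785 without 15°C).

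The later steps of miR-223-3p were large at Hatch and small at Met. Hatch against 20S gave 3.21 on the log2 scale (SE 0.76, limma adjusted p = 0.0888), which did not pass on trimmed reads and passed on the summed miRNA reads (2.93, limma adjusted p = 0.0477). Centred on the median miRNA it did not pass (1.92, limma adjusted p = 0.0741). The ratio in pooled reads was 8.63 (7.55 to 9.89). Met against Hatch gave 0.78 (SE 0.76, limma adjusted p = 0.490), with a ratio of 1.90 (1.82 to 1.99). The other arm, miR-223-5p, was nearly unread. It had 7 reads in all, 6 in the Hatch 15°C library and 1 in the Met 21°C library, against 9032 reads of miR-223-3p, or 0.0774% (0.0311 to 0.159) of the reads of both arms.

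miR-142, the general blood cell miRNA, was at or near 0 until hatching. It had 1, 0, 6 and 32 reads from 75Ep to Met at 21°C, against 0, 0, 15 and 198 reads at 15°C. With 3 reads as the limit, a count of 0 in the 20S libraries allows a level of up to 1.17 RPM at 21°C and 0.904 at 15°C. The levels at Hatch were 1.84 RPM (0.676 to 4.01) at 21°C and 3.48 (1.95 to 5.74) at 15°C, so the interval at 21°C held the 20S limit. At Met the levels were 7.53 RPM at 21°C and 39.9 at 15°C, above the 20S limits. The entry miR-142b, whose listed sequence is that of miR-142 with shifted ends, had 0, 0, 1 and 5 reads at 21°C. At 15°C it had 0, 1, 10 and 30 reads. Both entries were thus detected in both libraries of a stage only at Hatch and Met. Met against 75Ep passed the test for miR-142 (6.33, SE 1.23, limma adjusted p = 0.00202) and for miR-142b (4.73, SE 0.998, limma adjusted p = 0.00295). These fitted changes depend on the value given to no read, so they are given on trimmed reads alone. In pooled trimmed reads miR-142b at Met was 6.30-fold above the limit of 3 reads at 75Ep, leaving out counting error at Met. miR-142 was 124 times higher at Met than at 75Ep (22.1 to 4923), with 1 read at 75Ep behind it. Hatch against 20S did not pass for miR-142 (4.65, SE 1.23, limma adjusted p = 0.0888), although in pooled reads Hatch was 5.44-fold above the limit of 3 reads at 20S. Met against Hatch did not pass either (2.78, SE 1.23, limma adjusted p = 0.163), with a ratio of 8.997 (5.75 to 14.8).

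Where miR-142 and miR-142b were both read, miR-142b was the smaller. At Hatch it made up 1 of 7 reads of the pair at 21°C and 10 of 25 at 15°C, and at Met 5 of 37 reads at 21°C, or 13.5% (4.54 to 28.8), and 30 of 228 reads at 15°C, or 13.2% (9.06 to 18.2). In the paper's list of mature sequences, miR-142 and miR-142b are the same stretch with shifted ends. They may therefore not be separate miRNAs. How reads that match both were assigned is not given in the sources used here, so the split between the letters is uncertain. The split between miR-146a and miR-146b is uncertain too. With the letters of a number summed, 5 of 6 entries rose at Met against 75Ep on trimmed reads. The share of all summed entries that rose was not counted, and 63.4% of the unsummed miRNAs rose.

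miR-146a, the feedback regulator of inflammation, was low through 20S and rose late. It had 1, 8, 95 and 323 reads from 75Ep to Met at 21°C, against 8, 3, 93 and 1370 reads at 15°C. The levels were 0.461, 3.12, 29.2 and 76.0 RPM at 21°C, against 2.85, 0.904, 21.6 and 275.9 RPM at 15°C. The 75Ep and 20S libraries overlapped, and the ratio of 20S to 75Ep in pooled reads was 1.03 (0.389 to 2.82). Met against 75Ep gave 6.98 on the log2 scale (SE 1.23, limma adjusted p = 0.00127), the largest fitted change among the members, and a ratio of 101.5 (53.3 to 222) in pooled reads. The call was lost without the Met 15°C library (6.12, limma adjusted p = 0.0556) and when each library was centred on its median miRNA (2.52, limma adjusted p = 0.193). Hatch against 20S (3.90, SE 1.23, limma adjusted p = 0.145) and Met against Hatch (2.53, SE 1.23, limma adjusted p = 0.194) did not pass alone, although the libraries of the stages did not overlap and the pooled ratios were 13.3 (7.26 to 27.1) and 7.40 (6.36 to 8.65). miR-146b, its close relative, had 5 reads in all, 3 of them in the 20S 21°C library and 1 in each Met library.

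miR-150, the lymphocyte miRNA, had another pattern from the rest. It was well read at 75Ep, before lymphocytes are known to be present in a fish embryo, and it ranked 58 at 21°C and 40 at 15°C among the miRNAs of those libraries. Its reads from 75Ep to Met numbered 116, 50, 54 and 1445 at 21°C, against 123, 147, 126 and 2982 at 15°C. Scaled to depth, the levels were 53.5, 19.5, 16.6 and 340.2 RPM at 21°C, against 43.9, 44.3, 29.2 and 600.5 RPM at 15°C. The levels at 75Ep, 20S and Hatch lay between 16.6 and 53.5 RPM, with 20S overlapping both neighbours, and both Met libraries stood above all others.

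Met against Hatch was the step at which miR-150 passed the test, with a change of 4.36 on the log2 scale (SE 0.77, limma adjusted p = 0.00845) and a ratio of 20.2 (17.4 to 23.6) in pooled reads. It was the only member to do so at that step, and it passed under both other scalings (4.30, limma adjusted p = 0.0147, and 3.71, limma adjusted p = 0.0115). It missed the threshold without the Hatch 21°C, Hatch 15°C or Met 15°C library (4.24 to 4.48, limma adjusted p = 0.148, 0.131 and 0.0738). Met against 75Ep also passed (3.22, SE 0.77, limma adjusted p = 0.00519; a ratio of 9.996, 8.77 to 11.4), but the change was 1.13 (limma adjusted p = 0.180) relative to the summed miRNA reads and turned to -1.24 (limma adjusted p = 0.112) when libraries were centred on the median miRNA. The early steps did not pass, with -0.72 at 20S against 75Ep (SE 0.77, limma adjusted p = 0.511) and -0.42 at Hatch against 20S (SE 0.77, limma adjusted p = 0.868). Centred on the median miRNA, which itself climbed between 75Ep and 20S, miR-150 passed as lower at 20S than at 75Ep (-3.24, limma adjusted p = 0.0176).

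miR-155, the miRNA of activated lymphocytes and macrophages, was first read at 20S and was highest at Hatch. It had 0, 4, 9 and 6 reads from 75Ep to Met at 21°C, against 0, 7, 32 and 18 reads at 15°C. A count of 0 at 75Ep allows up to 1.38 RPM at 21°C and 1.07 RPM at 15°C. The levels at 20S, Hatch and Met were 1.56, 2.76 and 1.41 RPM at 21°C, against 2.11, 7.42 and 3.62 RPM at 15°C. In pooled trimmed reads 20S was 3.10-fold above the limit of 3 reads at 75Ep, leaving out counting error at 20S. 20S against 75Ep passed the test (4.17, SE 0.98, limma adjusted p = 0.0143). With no read at 75Ep, the fits under the other scalings are no check of it. The value given to no read was not scaled with the library. Of the miRNA reads, miR-155 made up 6.99e-04% in the 20S 21°C library. A single read in the 75Ep 21°C library (miR-142) made up the same share, 6.99e-04%. This call is therefore given for trimmed reads alone. That call rests on 11 reads at 20S and was lost without the 75Ep 15°C library (limma adjusted p = 0.0823) or either 20S library (0.128 without 21°C, 0.112 without 15°C). Met against 75Ep passed (4.49, SE 0.98, limma adjusted p = 0.00337), with Met 4.32-fold above the limit of 3 reads at 75Ep in pooled trimmed reads. Hatch against 20S (1.32, SE 0.98, limma adjusted p = 0.548) and Met against Hatch (-1.001, SE 0.98, limma adjusted p = 0.491) did not pass. The pooled ratio of Met to Hatch was 0.481 (0.278 to 0.815), and the libraries of both stages overlapped.

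The balance among the members changed with stage. From 75Ep to Met, miR-150 supplied 86.6, 36.0, 4.0 and 40.5% of the member reads at 21°C, against 83.7, 45.7, 7.25 and 33.3% at 15°C. miR-223-3p supplied 11.9, 53.2, 87.8 and 49.2% at 21°C, against 10.9, 50.9, 83.8 and 48.7% at 15°C. The member reads were thus mostly miR-150 at epiboly and mostly miR-223-3p at hatching, and miR-223-3p stood ahead of miR-150 at 20S and Met. miR-146a supplied 0.746 to 7.04% before Met, and 9.05% (21°C) and 15.3% (15°C) at Met. These shares do not depend on the scaling of the libraries, and both temperature groups followed the same order at each stage for the leading member.

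**Figure D2:**
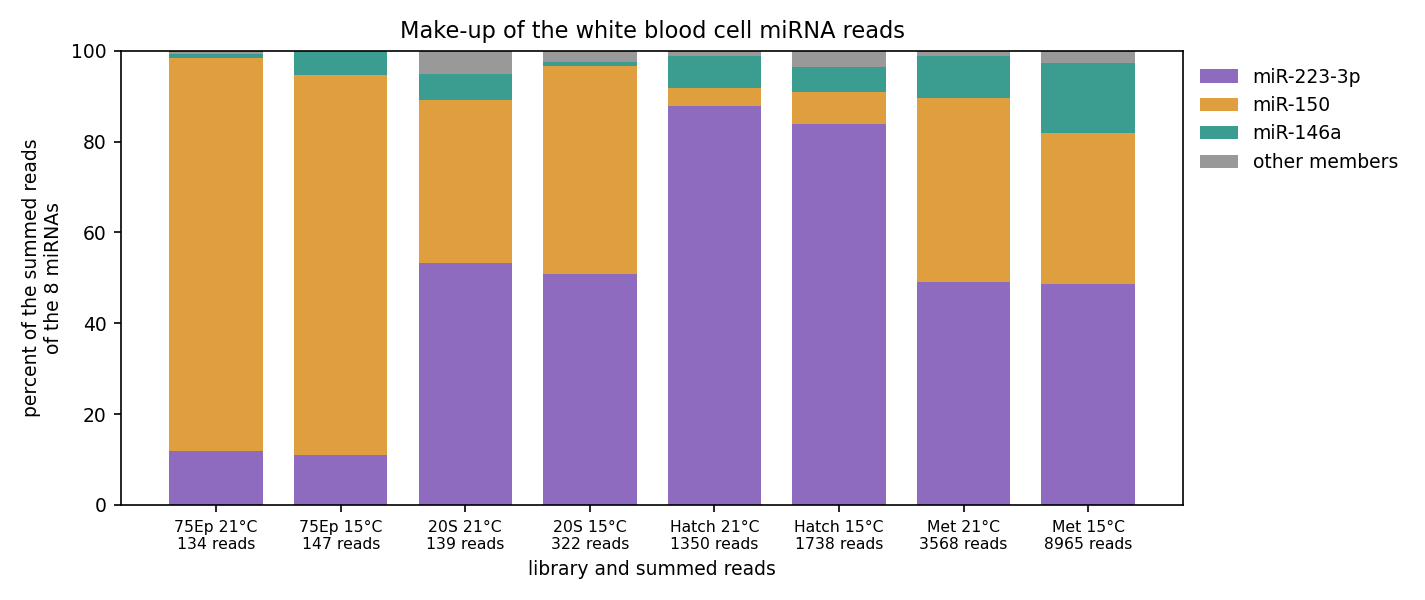
Percent of the summed member reads supplied by miR-223-3p, miR-150, miR-146a and the other members (y axis) in each of the 8 libraries (x axis, with the summed reads under each bar). miR-150 made up over 83% at 75Ep and miR-223-3p over 83% at Hatch.

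Between Met and 75Ep, 6 of the 8 members rose, with miR-142 and miR-142b counted apart, and none fell. Of the 295 miRNAs tested, 63.4% rose and 5.42% fell. The share of members was close to that background. The median change of the 8 members was 4.61, against 4.07 for all miRNAs tested. Of the miRNA reads at Met, miR-155 made up 7.91e-04% (21°C) and 7.88e-04% (15°C), and miR-142b 6.59e-04% (21°C) and 0.00131% (15°C). A single read at 75Ep 21°C (miR-142) made up 6.99e-04%, so the rise of miR-155 and miR-142b is given on trimmed reads alone. The fits under the other scalings can be read only for the 3 members with a read in every library (miR-146a, miR-150 and miR-223-3p). They stand beside the 179 miRNAs read in all 8. On trimmed reads all 3 rose, against 72.1% of the 179, with medians of 6.54 and 4.40. Relative to the summed miRNA reads 2 rose (miR-146a and miR-223-3p), against 50.8%, with medians of 4.44 and 2.30, and centred on the median miRNA 1 rose (miR-223-3p), against 21.2%, with medians of 2.07 and -0.07. With each member at its pooled ratio or at its bound, the median over the 6 members that had one was 4.99. The members that did not pass were miR-146b (1.11, limma adjusted p = 0.355) and miR-223-5p (0.61, limma adjusted p = 0.657), which had 2 and 1 reads at Met. All 8 members passed the filter of at least 1 read in 2 libraries, but miR-142b, miR-146b, miR-155 and miR-223-5p did so through 20S, Hatch or Met alone. Across the 4 stages, 6 of 8 members differed in the F-test (limma adjusted p of 7.56e-04 to 0.00973), where 68.8% of all miRNAs did. A change that missed the threshold in these small comparisons is not shown to be absent.

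**Figure D3:**
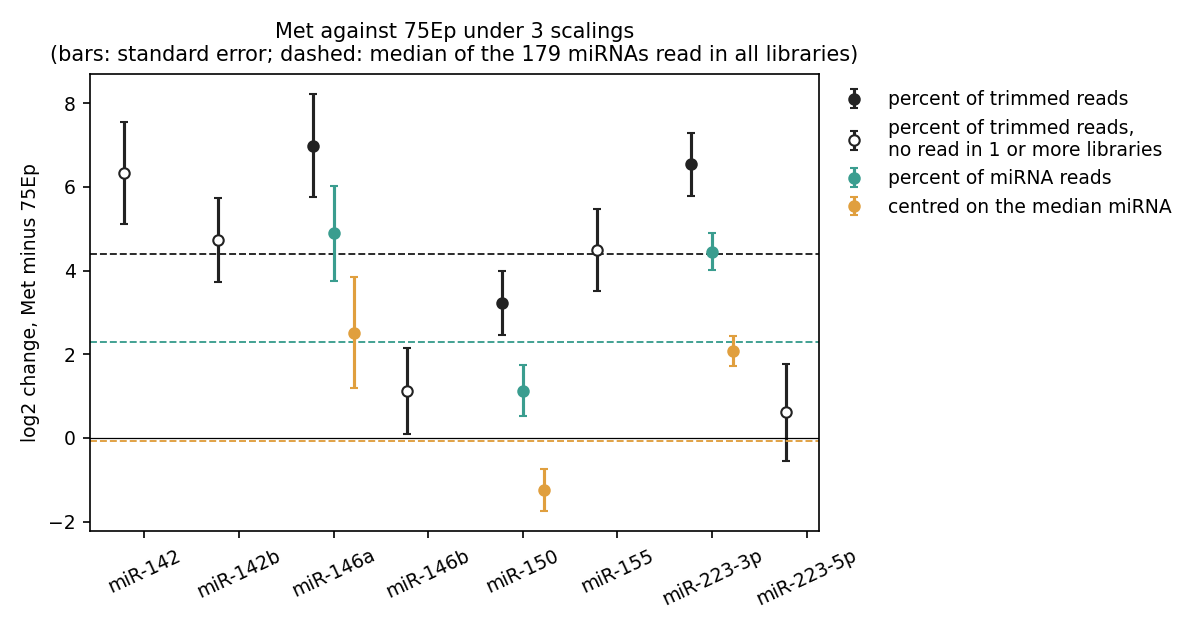
Log2 change at Met against 75Ep (y axis, fitted by limma) of each of the 8 members (x axis) by trimmed reads, and of the 3 members read in every library also by summed miRNA reads and by the median miRNA of each library. Bars are standard errors, open symbols mark members with no read in 1 or more libraries, and dashed lines are the medians of the 179 miRNAs read in all 8. miR-223-3p passed under each scaling, and miR-150 ran from 3.22 on trimmed reads to -1.24 on the median miRNA.

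Step by step, the members moved at different stages. At 20S against 75Ep, 2 of 8 members rose (miR-155 and miR-223-3p) and none fell, against 39.3% of all miRNAs higher and 1.02% lower, with a median change of 0.67 for the members and 2.15 for all. At Hatch against 20S no member passed limma, where 1.36% of all miRNAs were higher and 0.0% lower. At an unadjusted p under 0.05, 3 members passed there (miR-142, miR-146a and miR-223-3p), beside 47 of the 295 miRNAs, voom called 0 members, and the median change was 2.09 for the members and 0.80 for all. At Met against Hatch, 1 of 8 rose (miR-150), against 13.6% of all higher and 4.07% lower, with medians of 1.39 and 0.51. The median of the members thus stood below that of all miRNAs at the first step and above it at the later ones. At the first step only 4 of the 8 members had a pooled ratio or bound, with a log2 median of 0.84. The rest had at most 3 reads at either stage, so their fitted changes depend on the value given to no read. At the later steps 7 members had a ratio or bound, with log2 medians of 2.44 and 1.39.

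For temperature, no member passed the test of 21°C against 15°C over the stages. In limma with stage as a block, 0 of 8 members and 0.0% of all miRNAs passed in either direction, and voom also called 0 members. At an unadjusted p under 0.05, 1 member passed, miR-142b (-1.71, limma adjusted p = 0.998), beside 8 of the 295 miRNAs. The median change at 21°C against 15°C was -0.60 for the members and -0.08 for all. The 3 members read in every library had changes of -0.63 (miR-150), -0.57 (miR-146a) and -0.35 (miR-223-3p). For the others the change also depends on the value given to no read, and the sign can turn with the scaling. miR-142 was -0.28 on trimmed reads and 0.69 on the summed miRNA reads, and miR-146b was above 0 (0.94).

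Within a stage there was 1 library per temperature, so the ratios of 21°C to 15°C have no replicate check and no test. At Met most members were lower at 21°C on trimmed reads. Of 7 members read in both libraries, 5 were at least 2-fold lower in the 21°C library, as were 64.3% of the 258 miRNAs read in both (none of the members and 4.26% of all were at least 2-fold higher), and the median ratio was 0.390 for the members and for all. On trimmed reads the ratio was 0.189 (0.126 to 0.275) for miR-142, 0.276 (0.243 to 0.311) for miR-146a, 0.470 (0.444 to 0.497) for miR-223-3p and 0.566 (0.532 to 0.603) for miR-150. Relative to the summed miRNA reads, miR-142 (0.487, 0.324 to 0.710) and miR-146a (0.710, 0.627 to 0.802) were still lower at 21°C, while miR-223-3p (1.21, 1.14 to 1.28) and miR-150 (1.46, 1.37 to 1.55) were higher. Centred on the median miRNA, miR-223-3p was even (1.02, 0.961 to 1.07), miR-150 was higher (1.22), and miR-142 (0.408) and miR-146a (0.596) were lower. The miRNA share of the trimmed reads, 17.9% at 21°C and 46.0% at 15°C, moved with these ratios, and its part in them was not tested.

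**Figure D4:**
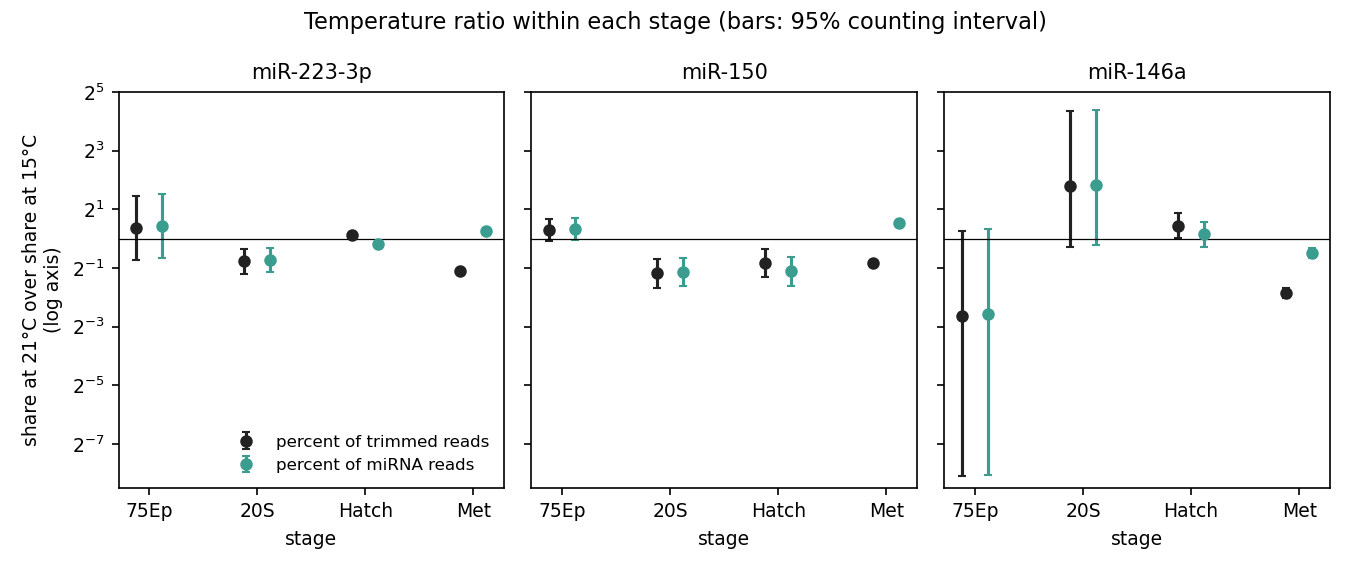
Ratio of the 21°C to the 15°C library (log axis) within each stage (x axis) for miR-223-3p, miR-150 and miR-146a, on trimmed reads and on summed miRNA reads. Bars are exact 95% counting intervals and the line marks a ratio of 1. At Met miR-150 stood at 0.566 on trimmed reads and 1.46 on miRNA reads, on opposite sides of the line.

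The earlier stages gave ratios of mixed direction. At 20S, miR-150 (0.440, 0.313 to 0.611) and miR-223-3p (0.584, 0.438 to 0.773) were lower at 21°C on trimmed reads and on both other scalings. Of 4 members read in both libraries, 1 was at least 2-fold lower there (miR-150) and 1 at least 2-fold higher (miR-146a, on 8 reads at 21°C and 3 at 15°C), where 9.24% of 238 miRNAs were lower and 11.3% higher. At Hatch, miR-150 (0.568, 0.405 to 0.787) and miR-155 (0.372, 0.156 to 0.798) were lower at 21°C under each scaling, and miR-142 with miR-142b came to 0.371 (0.135 to 0.882). There, 2 of 6 members were at least 2-fold lower and none higher, beside 12.5% lower and 12.1% higher of 256 miRNAs. miR-223-3p was nearly even at Hatch (1.08, 0.997 to 1.16) and 0.879 (0.813 to 0.949) of miRNA reads. At 75Ep the intervals of miR-150 (1.22, 0.937 to 1.58), miR-223-3p (1.29, 0.605 to 2.76) and miR-146a (0.162, 0.00364 to 1.20) all held 1 on trimmed reads, but centred on the median miRNA miR-150 (0.643, 0.495 to 0.836) and miR-146a (0.0852, 0.00192 to 0.636) were lower at 21°C. Of 3 members read in both there, 1 was at least 2-fold lower and none higher, beside 10.4% lower and 49.2% higher of 193 miRNAs. miR-150 was thus lower at 21°C at both 20S and Hatch, with intervals below 1 under all 3 scalings, and its direction at Met turned with the scaling.

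Other blood-linked and immune-linked miRNAs were followed as lists for comparison. The red blood cell miRNAs, miR-144-3p, miR-144-5p and miR-451, passed at the same step as miR-150. At Met against Hatch 3 of 3 rose, beside 13.6% of all miRNAs, and none passed at 20S or Hatch on trimmed reads. Under each of the other scalings 2 of 3 rose at Met against Hatch. miR-144-3p had 10 (21°C) and 5 (15°C) reads at Met, and miR-144-5p had 83 (21°C) and 236 (15°C). Neither was read at Hatch, so their fitted changes depend on the value given to no read. miR-451, the one read in every library, rose at Met against Hatch under both other scalings too (6.24, limma adjusted p = 0.00688, and 5.64, limma adjusted p = 0.0109), and under both it was lower at 20S than at 75Ep (-3.83, limma adjusted p = 0.0281, and -4.59, limma adjusted p = 0.0176). miR-451, needed for red cell maturation in zebrafish, had 357 (21°C) and 1295 (15°C) reads at Met, against 5 (21°C) and 10 (15°C) at Hatch (6.29, SE 0.93, limma adjusted p = 0.00354). The vessel miRNAs, from the miR-126 entries of endothelium, counted 2 of 3 higher at Met against 75Ep, beside 63.4% of all miRNAs. At Met against Hatch they counted 0 of 3, beside 13.6%. Their miR-126b call rests on 3 (21°C) and 8432 (15°C) reads at Met. miR-126a-5p was as uneven the other way, with 2136 (21°C) and 4 (15°C) reads at Met. At Hatch it had 1584 (21°C) and 2715 (15°C) reads, and its change at Met against Hatch was -4.78 (SE 2.16, limma adjusted p = 0.171).

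Of the lymphocyte-linked miRNAs (miR-181 entries and miR-34a), 5 of 6 rose at Met against 75Ep on trimmed reads, beside 63.4% of all miRNAs. Among the 5, miR-181d had no read at 75Ep, and 4 (21°C) and 5 (15°C) reads at Met. Its change therefore depends on the value given to no read. By 20S 4 of 6 had risen, beside 39.3% of all, but 2 of 6 under each of the other scalings. When centred, miR-34a was lower at 20S than at 75Ep (-2.09, limma adjusted p = 0.0298). The share of all miRNAs called at 20S under those scalings was not counted. The median change of all 295 miRNAs tested also shrank at that step, from 2.15 on trimmed reads to 1.19 on the summed miRNA reads and 0.47 when centred. None passed at Hatch or from Hatch to Met on trimmed reads. The timing differs from that of miR-150 in these trimmed-read counts, without a test of that difference. Under centring on the median miRNA, 1 of the 6 rose (miR-181a-5p) and 1 fell (miR-34a) at Met against 75Ep. Of the 179 miRNAs read in all 8 libraries, 21.2% rose there. Of the inflammation-linked miRNAs, 6 of 7 could be tested and 4 rose at Met against 75Ep (miR-21, miR-132-3p, miR-132-5p and miR-125b-5p), beside 63.4% of all. On the summed miRNA reads 3 rose there (miR-132-3p, miR-132-5p and miR-125b-5p), and 2 when centred (miR-132-5p and miR-125b-5p). miR-132-5p had no read at 75Ep, so its calls there depend on the value given to no read. The other calls stand beside 50.8% and 21.2% of the 179 miRNAs read in all 8 libraries. At Met against Hatch, miR-132-5p (4.95, SE 0.88, limma adjusted p = 0.00845) and miR-125b-5p (3.48, SE 0.80, limma adjusted p = 0.0246) rose, beside 13.6% of all miRNAs. The change of miR-132-5p rests on 1 read in each Hatch library, against 23 (21°C) and 62 (15°C) reads at Met. It was not read at 20S either. The interferon-induced fish pair, miR-462 and miR-731, gave no call on trimmed reads. When centred, miR-462 (-2.40, limma adjusted p = 0.0332) and miR-731 (-5.92, limma adjusted p = 0.0370) were both lower at Met than at 75Ep. miR-731 had no read in the Met 21°C library, so its change depends on the value given to no read. The share of all miRNAs lower there when centred was not counted. No list had a member that passed for temperature.

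The 3 members read in every library were set beside the 176 other miRNAs read in all 8. Over these 8 libraries, the log2 levels most like those of miR-223-3p were those of miR-138a (r = 0.983), miR-133a-3p (r = 0.982) and miR-133a-5p (r = 0.980), with a median r of 0.814 over all 176. For miR-146a they were miR-100 (r = 0.962), miR-99a-5p (r = 0.952) and miR-125b-5p (r = 0.946), with a median r of 0.659. For miR-150 they were miR-22b (r = 0.955), miR-451 (r = 0.949) and let-7e (r = 0.947), with a median r of 0.336, and miR-451 came first when libraries were centred (r = 0.969). Among the members, r was 0.885 for miR-146a with miR-223-3p, 0.589 for miR-146a with miR-150 and 0.435 for miR-150 with miR-223-3p, and when centred 0.684, 0.192 and -0.293. These values describe 8 libraries that share stages and depth, and most miRNAs climbed with stage.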

How the data were processed

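Small RNA from pools of triplicate samples of whole embryos and larvae was sequenced on the SOLiD platform, 1 library per stage and temperature. The authors trimmed and filtered the reads and matched them to known miRNAs of other species, and the log2 values were deposited as the log2 of each miRNA's percent of trimmed reads. The lowest value, -46.51 (the log2 of 1e-14), was taken as no read.

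Reads were recovered by taking the commonest value above the lowest in each library as 1 read, and 99.5% of 2033 values came out whole within 0.01 read. Trimmed reads per library follow from the same step. For the tests it was replaced by -16.60, which lies 1 log2 unit under the lowest single read of any library. The 295 miRNAs with at least 1 read in at least 2 libraries entered limma 3.58.1 in R 4.3.3, which modelled stage and temperature, let the variance follow the mean level, and was tested two-sided at a Benjamini-Hochberg adjusted p of 0.05 over all of them. The fit was tested on simulated data. A pooled ratio sums the reads of both temperatures of a stage and divides by their summed trimmed reads. Where the earlier stage had no read it is a bound against 3 reads over that stage, without counting error for the later stage. Intervals are exact, at 95%. Python 3.11.15 with numpy 2.4.6, pandas 2.3.3, scipy 1.17.1 and matplotlib 3.10.9 was used for the rest.

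The members and the lists were chosen with earlier results of these data known. All members are named, as are the members of the lists that a count turns on and, for each member read in all 8 libraries, the 3 miRNAs most like it by Pearson r. Alternatives were shares of the miRNA reads in place of the trimmed reads, libraries centred on their median over the miRNAs read in all 8, other values for no read, other filters, sums over letters, other variance priors, models without temperature or without the stage block, and leaving out each library. The no-read value as deposited and voom on the recovered reads were added after seeing the data. Apart from the listed sequences of miR-142 and miR-142b, sequences and genome positions of the miRNAs were not used here.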

Additional observations from a re-analysis of the deposited data

Results flagged for a closer look

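The ratio of the 21°C to the 15°C library of miR-146a went opposite ways at Hatch and Met. It was 1.35 (1.01 to 1.82) at Hatch, on 95 reads at 21°C and 93 at 15°C, and 0.276 (0.243 to 0.311) at Met, on 323 reads at 21°C and 1370 at 15°C. Each ratio rests on 1 library per temperature, and the difference between the stages was not tested. Relative to the summed miRNA reads the ratio was 1.10 (0.820 to 1.48) at Hatch and 0.710 (0.627 to 0.802) at Met.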

How the results depend on the processing

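Of 174 combinations of the 9 called stage changes of members with an alternative, 18 lost the call, 1 turned and the rest kept direction and side of the threshold. The one that turned was miR-150 at Met against 75Ep (-1.24 when centred on the median miRNA). The causes of the lost calls were not tested. A value for no read was not scaled with its library, so calls of members with no read at 75Ep under the 2 other scalings are no check of them. Members that differed among stages numbered 6, and 3 when centred or when only the miRNAs at or above the median abundance were tested, which kept 3 members (4 to 7 when a library was left out). Members that rose at Met against 75Ep numbered 6, and 3 under those same settings (5 to 6 without a library). At 20S against 75Ep they numbered 2, and 1 when scaled to the summed miRNA reads, when centred (in both cases miR-155) or when only the more abundant miRNAs were tested (0 to 2 without a library), and 1 fell when centred. At Hatch against 20S they numbered 0, and 1 when scaled to the summed miRNA reads or without the temperature term. At Met against Hatch they numbered 1 (0 to 1 without a library). Leaving out a library left its stage with 1 library, assumed to vary like the others. With no-read values as deposited, miR-142 at Met against 75Ep was 21.28 (limma adjusted p = 0.145).

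The summed members at Met were 24.1 times those at 75Ep on trimmed reads and 4.904 times on miRNA reads. Their ratio of 21°C to 15°C was 1.18 at 75Ep and 0.622 when centred, and 1.03 at Hatch, 0.838 on miRNA reads and 0.834 when centred. At Met it was 0.465, 1.20 on miRNA reads and 1.01 when centred. There, miR-150 turned to 1.46 on miRNA reads and 1.22 when centred, and miR-223-3p to 1.21 on miRNA reads and 1.02 when centred. The labels give no replicate numbers. The temperature comparison paired the libraries of a stage by a stage block, and without it 0 members passed as well. Members with a few reads in any library, such as miR-142b, miR-146b, miR-155 and miR-223-5p, are limited by depth.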
